A study of Mus musculus with 15 samples.

Results

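Glul encodes glutamine synthetase and Glud1 encodes glutamate dehydrogenase, and both were followed here in a mouse lymphoid ES cell line after treatment. They are 2 of the 9834 genes that the probes on these arrays name, and they are represented by 4 of 20205 probes. Probes 2516 and 19121 belong to Glul (NCBI Gene 14645), and probes 18222 and 19876 belong to Glud1 (NCBI Gene 14661). The probes were found by their symbol in the platform's gene table. Both genes were chosen by their treatment estimates, the mean log2 ratio on these same arrays, taken as treated over untreated RNA. Those estimates are therefore given as a description without a test.

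Glutamine synthetase joins ammonia to glutamate in the cytosol, using ATP, and is the enzyme by which mammalian cells make glutamine. Glutamate dehydrogenase works in the mitochondrial matrix and converts glutamate into 2-oxoglutarate and ammonia, or the reverse. The pair therefore stands on either side of glutamate: one enzyme uses it to bind ammonia, while the other links it to the citric acid cycle. Proliferating lymphoid cells and pluripotent cells are both known to use much glutamine.

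Each of 15 two-colour arrays held RNA of the treated line together with RNA of the untreated line. The treated RNA carried Cy5 on arrays 1 to 8 and Cy3 on arrays 9 to 15, which are dye swaps. The agent, its dose, its duration and the number of cultures are not in the labels, nor is what makes the line lymphoid. The protocol text mentions organs and a pool of control animals, wording at odds with a cell line, and p-values below measure only the spread between arrays, which may be technical.

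Between 19213 and 19973 probes per array had a measured value, and all 4 probes were measured on all 15 arrays, so both genes passed the filter on missing values. The values are ratios without spot intensities, so neither the level of an enzyme nor the defining markers of the labelled cell type could be checked as present or absent. A deposited log2 ratio above 0 was taken to stand for a higher level in treated cells. This direction is not settled. It was read from placeholder values for an empty channel. Of these, 1117 of 1117 were above 0 with the treated RNA in Cy5 and 882 of 882 below 0 in the swaps. The same signs would arise from untreated over treated RNA if the channel of the other dye were the empty one. Every estimate would then have the opposite sign, with Glul higher and Glud1 lower in treated cells. The median correlation between arrays of opposite orientation was -0.058 over all probes. For both genes, their probes and the lists, values or counts with the swaps turned round are therefore given as well. Arrays 7, 8 and 15 stood apart: their highest correlation with any other array was 0.083, 0.083 and 0.034, against 0.13 to 0.32 for the remaining arrays, and they had 17, 30 and 39 placeholders, against 130 to 239.

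Glul was lower and Glud1 higher in the treated RNA by the deposited ratio. As the mean of both orientations, the log2 ratio was -0.24 ± 0.04 for Glul and 0.23 ± 0.08 for Glud1 (SE, n = 15 arrays each), which are ratios of 0.850 and 1.17. The Glul ratio was below 0 on 14 of 15 arrays and the Glud1 ratio above 0 on 12 of 15. Over all 9720 genes fitted, the median estimate was 0.0054, and the Glul and Glud1 estimates lay at its 3.99th and 94.4th percentiles. As background, limma called 4 of these genes (0.0412%) at an adjusted p under 0.05, in a contrast that the choice of the pair had used.

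**Figure D1:**
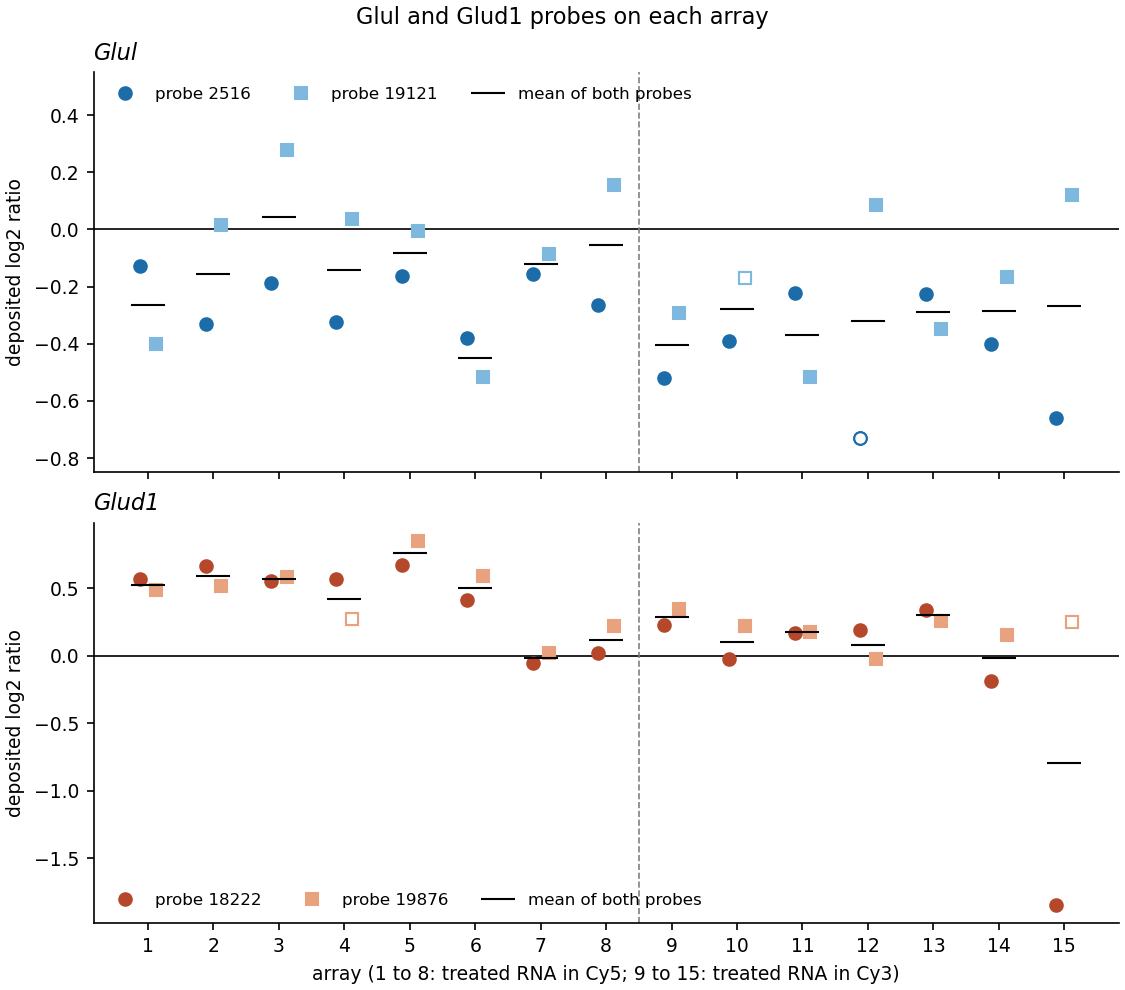
Deposited log2 ratio (vertical axes) of both probes of Glul (top) and Glud1 (bottom) on each of 15 arrays (horizontal axis), with arrays 1 to 8 left of the dashed line and the dye swaps right of it; bars mark the mean of both probes and open symbols the 4 dim values. Probe 2516 of Glul is below 0 on every array, and probe 18222 of Glud1 drops to -1.85 on array 15.

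Probe 2516 of Glul was below 0 on all 15 arrays. With the treated RNA in Cy5 its log2 ratio ran from -0.38 over a median of -0.23 to -0.13 on 8 arrays, and in the swaps from -0.73 over a median of -0.40 to -0.22 on 7 arrays. The ranges of the orientations overlapped, with the 2 lowest values, -0.73 and -0.66, on arrays 12 and 15. Its estimate was -0.35 ± 0.05 (SE), a ratio of 0.787.

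Probe 19121 of the same gene scattered around 0. It ran from -0.52 over 0.0055 to 0.28 with the treated RNA in Cy5 (lowest, median, highest) and from -0.52 over -0.17 to 0.12 in the swaps, and it was below 0 on 9 of 15 arrays. Its estimate was -0.12 ± 0.07 (SE), a ratio of 0.917. The estimate of probe 2516 was thus the lower one, and on 6 of 15 arrays the Glul probes had opposite signs, with probe 19121 highest on array 3 at 0.28.

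On arrays 1 to 6 both Glud1 probes were above 0 throughout. There, probe 18222 lay between 0.41 and 0.67 and probe 19876 between 0.27 and 0.85, with means of 0.57 ± 0.09 and 0.55 ± 0.19 (SD, n = 6). On arrays 7 and 8, which carry the same dye orientation, the values were -0.055 and 0.020 for probe 18222 and 0.021 and 0.22 for probe 19876. The values of arrays 7 and 8 thus lay below all values of arrays 1 to 6 for either probe.

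In the dye swaps the Glud1 ratios were closer to 0. Probe 19876 ran from -0.028 over a median of 0.22 to 0.35 on arrays 9 to 15 and was above 0 on 6 of 7. Probe 18222 lay between -0.19 and 0.34 on arrays 9 to 14, but at -1.85 on array 15, where probe 19876 of the same gene gave 0.25. The probe estimates were 0.32 ± 0.06 for probe 19876 and 0.13 ± 0.14 for probe 18222 (SE, n = 15), and without array 15 probe 18222 stood at 0.27 ± 0.07 and the gene at 0.29.

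Of the 60 values of the 4 probes, 4 were dim. A dim value is one that, after subtraction of the array's constant, lay within 0.0015 of log2(a/b) for whole numbers a and b of at most 6, as spots of very few signal units give. Over all probes, the share of dim values per array ran from 3.6% (array 8) to 16% (array 10). The rule sees only the ratio, so a brighter spot can meet it too. The 4 dim values of the pair were probe 2516 on array 12, probe 19121 on array 10, and probe 19876 on arrays 4 and 15. On array 4 the value of 0.27 equals the array constant itself, which is a ratio of 1 before the shift. With dim values left out, Glul was at -0.21 ± 0.05 and Glud1 at 0.16 ± 0.13 (SE), the Glud1 mean then resting on probe 18222 alone on arrays 4 and 15.

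Within each array, the Glud1 ratio exceeded the Glul ratio on 14 of 15 arrays. This difference does not depend on the constant added to an array's values. With the treated RNA in Cy5, Glud1 minus Glul ran from 0.11 over a median of 0.66 to 0.95 (log2), and in the swaps from -0.53 over a median of 0.40 to 0.69. The only negative difference was on array 15, and the smallest positive ones, 0.11 and 0.17, were on arrays 7 and 8. Since the pair was chosen with its estimates known, the direction of this difference is a description.

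The size of the ratio by dye orientation was not part of the choice and was tested. The Glul mean was -0.15 ± 0.15 with the treated RNA in Cy5 (SD, n = 8) and -0.32 ± 0.05 in the swaps (SD, n = 7), so the Glul ratio was lower in the swaps. The difference was 0.16 (exact permutation test over arrays, two-sided, p = 0.0190, 6435 splits). The Glud1 mean was 0.43 ± 0.26 with the treated RNA in Cy5 (SD, n = 8) and 0.018 ± 0.38 in the swaps (SD, n = 7), a difference of 0.42 (exact permutation test, two-sided, p = 0.0135). The mean in the swaps includes array 15 at -0.80, and arrays 9 to 14 alone gave 0.15 ± 0.12 (SD, n = 6). By probe, the Glul difference was 0.21 for probe 2516 and 0.12 for probe 19121 (exact permutation test, p = 0.0194 and 0.374). For Glud1 it was 0.59 for probe 18222 and 0.25 for probe 19876 (exact permutation test, p = 0.0166 and 0.0385). Adjusted over these probes, 2516 and 18222 passed (adjusted p = 0.039 for both), while 19121 and 19876 did not (adjusted p = 0.374 and 0.0514).

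Adjusted over all 9720 genes, neither gene passed limma's test of the orientation effect, defined as 0.5 times the difference between orientations. It was 0.082 ± 0.04 for Glul (adjusted p = 0.337) and 0.21 ± 0.08 for Glud1 (adjusted p = 0.174; SE), while 254 genes, or 2.61% of all, were called. At an unadjusted p under 0.05, 1 of the 2 genes passed, which was Glud1 (p = 0.0230), against 19.5% of all genes. Without arrays 7, 8 and 15 the Glud1 effect was 0.20 ± 0.05 and passed (limma, adjusted p = 0.0388). In that setting 571 genes were called for the orientation effect, against 254 with all arrays.

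Turning the swaps round exchanges the treatment estimate and the orientation effect. Under that reading Glul would stand at 0.082 and Glud1 at 0.21, at the 71.2nd and 89.7th percentiles of all genes. Probes 2516 and 19121 would stand at 0.10 and 0.059, and probes 18222 and 19876 at 0.29 and 0.12. With all 15 arrays the Glud1 value is thus nearly the same under either reading, whereas that of Glul changes sign. Without array 15, Glud1 would stand at 0.14 with the swaps turned, against 0.29 as deposited. Without arrays 7, 8 and 15 it would stand at 0.20, against 0.36.

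**Figure D2:**
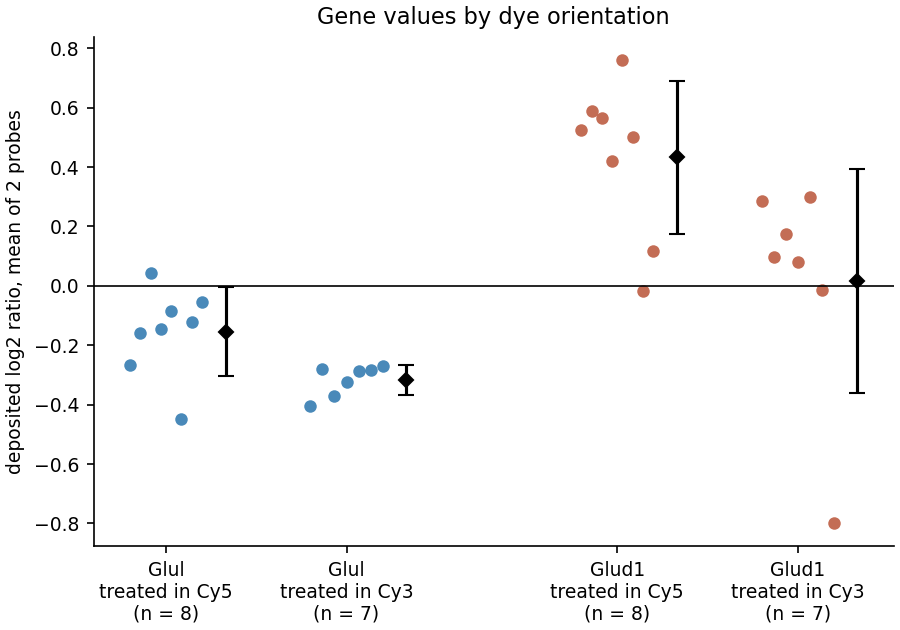
Mean log2 ratio of both probes (vertical axis) of Glul and Glud1 on each array, by the dye that carried the treated RNA; diamonds and bars give the mean ± SD of 8 arrays (Cy5) or 7 arrays (Cy3). Glul is at -0.15 and -0.32, and Glud1 at 0.43 and 0.018 with array 15 at -0.80.

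Whether the probes of one gene, or both genes, moved together from array to array was asked in 3 relations between deviations from the mean of each orientation, and none passed over all arrays. Over 15 arrays, r was -0.44 between the Glul probes (rho = -0.50; permutation p = 0.101 for r and 0.0594 for rho, adjusted p = 0.304 for r over the 3 relations). It was 0.22 between the Glud1 probes (rho = 0.30; permutation p = 0.390 and 0.272, adjusted p = 0.473). Between the gene means of Glul and Glud1 it was -0.18 (rho = -0.21; permutation p = 0.473 and 0.458, adjusted p = 0.473). Without the 2 arrays farthest from the median of the first measure, r was -0.077, 0.49 and -0.39 (permutation p = 0.802, 0.0945 and 0.190).

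Within single orientations, 2 of 6 relations passed after adjustment. In the swaps the Glul probes ran against each other, with r = -0.89 over 7 arrays (exact permutation p = 0.0113, adjusted p = 0.0425 over the 6). This call was lost in each other setting run: r was -0.90 after centring (adjusted p = 0.0528), -0.69 after scaling (adjusted p = 0.263), -0.50 after quantile normalization (adjusted p = 0.536) and -0.86 without arrays 7, 8 and 15 (adjusted p = 0.233; exact permutation tests). With the treated RNA in Cy5 the Glud1 probes ran together, with r = 0.79 over 8 arrays (exact permutation p = 0.0142, adjusted p = 0.0425). This call too was lost in each other setting. After centring, scaling and quantile normalization, r stayed at 0.775, 0.77 and 0.82. The exact permutation p was 0.0176, 0.0246 and 0.0161 before adjustment, and 0.0528, 0.148 and 0.0966 after it. Without arrays 7, 8 and 15, r was 0.24 (exact permutation test, adjusted p = 0.710). Over arrays 1 to 6 alone r was 0.24 with the deposited values, 0.69 after scaling and 0.84 after quantile normalization (exact permutation p = 0.650, 0.165 and 0.0972). For Glud1, r over the 14 arrays other than array 15 was 0.67 (permutation p = 0.00791, unadjusted). With arrays 7 and 8 also left out, it was 0.18 over 12 arrays (permutation p = 0.571, unadjusted).

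**Figure D3:**
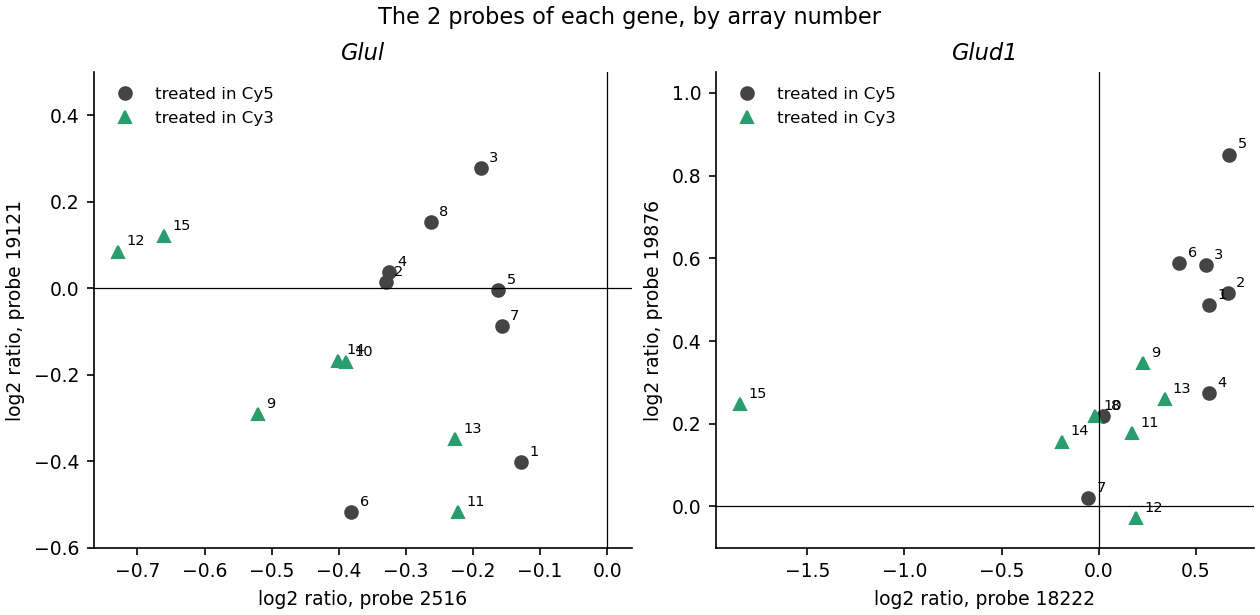
Log2 ratio of one probe against the other of the same gene, Glul left and Glud1 right, 1 point per array labelled with its number; circles have the treated RNA in Cy5 and triangles in Cy3. The Glud1 probes are both high on arrays 1 to 6, and array 15 lies alone at -1.85 on probe 18222.

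The genes most like Glul from array to array, by Pearson r of these deviations over 15 arrays among 8296 genes measured on all of them, were Rab5b, an endosomal GTPase (r = 0.81), Parvg, an adaptor of integrin adhesions (r = 0.78), Rbmxl1 (r = 0.78), Slc6a16 (r = 0.77) and Adat2, a subunit of a tRNA adenosine deaminase (r = 0.76). Their own treatment estimates lay between -0.06 and 0.15, and none passed limma's test. Without array 15, 4 of these 5 were again among the 5 most like Glul.

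The genes most like Glud1 were Mrps24 of the mitochondrial ribosome (r = 0.95), Nit2, an amidase of glutamine breakdown (r = 0.93), the mitochondrial elongation factor Gfm1 (r = 0.91), the ribosomal protein gene Rpl37a (r = 0.90) and the nuclear receptor gene Nr1h3 (r = 0.89). Their own treatment estimates lay between -0.48 and -0.069, opposite in sign to that of Glud1, and none passed limma's test. The r values depend on array 15: without it they were 0.88, 0.84, 0.80, 0.74 and 0.84. Only 1 of the 5 was then again among the 5 most like Glud1, and Stmn2 came first (r = 0.91). The highest of 8296 such coefficients is a selected value and is given here as a description.

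The enzymes and carriers around the pair did not pass the test. Of 117 genes in 6 lists of glutamine, glutamate and connected metabolism, 86 other than the pair were fitted. None passed limma's test at an adjusted p under 0.05, with 0.0412% of all genes called, and their smallest adjusted p was 0.327. At an unadjusted p under 0.05, 3 passed above 0 and 3 below, against 3.94% and 3.08% of all genes in these directions. Their median estimate was -0.027, with 37 above 0, 48 below and 1 at 0, against a median of 0.0054 over all genes. With the swaps turned, 38 would be above 0 and 48 below, with a median of -0.024.

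In the list of glutamate-forming and glutamate-using enzymes and neighbouring steps, 7 of the other 16 had estimates above 0 and 9 below (median -0.027), or 6 and 10 with the swaps turned. The cytosolic branched-chain aminotransferase Bcat1, which forms glutamate from 2-oxoglutarate, was at -0.17 ± 0.08 (SE; limma, adjusted p = 0.704) and below 0 on 10 of 15 arrays. The aminoadipate aminotransferase Aadat was at -0.13 ± 0.07 (limma, adjusted p = 0.733). Aadat was at -0.31 with the treated RNA in Cy5 only and at 0.047 in the swaps only. The tyrosine aminotransferase Tat was at 0.27 ± 0.14 (limma, adjusted p = 0.738) with a range of -0.43 to 1.92 over arrays. Tat was at 0.15 without array 12 and would be at -0.18 with the swaps turned.

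Of 22 carriers of glutamine and glutamate, 10 had estimates above 0, 11 below and 1, Slc1a2, at 0; with the swaps turned, 10 would be above and 12 below. Slc7a5, a subunit of an exchanger that trades glutamine for large neutral amino acids, ran from -0.998 over a median of -0.20 to 0.13 and was below 0 on 12 of 15 arrays. Its estimate was -0.30 ± 0.08 (SE; limma, adjusted p = 0.327). Slc38a2, a sodium-coupled importer of glutamine, was at 0.17 ± 0.08 (adjusted p = 0.704) and its 2 probes at 0.16 and 0.18. Slc7a8, another exchanger subunit, was at 0.17 ± 0.06 (adjusted p = 0.561) and above 0 on 12 of 15. With the swaps turned, Slc7a5 would be at 0.17, Slc38a2 at -0.11 and Slc7a8 at -0.0082.

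In the list of enzymes that spend glutamine as a nitrogen donor, Cps1 included, 6 of 10 were above 0, and 7 would be with the swaps turned. With Ctps, a CTP synthase, the sign depended on the arrays: its estimate was -0.20 ± 0.16, while Gatb, a subunit of the mitochondrial glutamyl-tRNA amidotransferase, was at -0.13 ± 0.11 (SE; limma, adjusted p = 0.810 and 0.818). Ctps was at -0.069 without array 14, at 0.094 with the treated RNA in Cy5 only and at 0.29 with the swaps turned, and Gatb was at -0.081 without array 7. Cps1, which in mammals takes free ammonia in place of glutamine, was at 0.18 ± 0.07 (limma, adjusted p = 0.619). Cps1 was at 0.36 with the treated RNA in Cy5 only and at -0.00057 in the swaps only. Asparagine synthetase (Asns) was at 0.0031 ± 0.09; it was singled out after its value was seen.

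Of 9 proline, ornithine and urea cycle genes, 3 were above 0 and 6 below, or 4 and 5 with the swaps turned. The argininosuccinate lyase Asl was at -0.21 ± 0.16, the arginase Arg1 at -0.17 ± 0.13 and the proline dehydrogenase Prodh at -0.12 ± 0.10 (SE; limma, adjusted p = 0.796, 0.796 and 0.827). Without array 1, where Asl was at -2.12, its estimate was -0.072 and that of Prodh -0.054; Arg1 was at -0.12 without array 7 and at -0.11 without array 9.

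All 6 fitted genes of glutathione synthesis and turnover had estimates below 0, with a median of -0.11; with the swaps turned, 4 of 6 would be below 0. Chac2, which breaks glutathione down, was at -0.12 ± 0.05, the glutathione synthetase Gss at -0.15 ± 0.08 and Gclc, the catalytic subunit of the entry enzyme, at -0.11 ± 0.10 (SE; limma, adjusted p = 0.704, 0.733 and 0.832). Without array 7, where Gclc was at -1.31, its estimate was -0.027, and Gss was at -0.094 without array 14. Chac2 was at -0.23 with the treated RNA in Cy5 only and at -0.00021 in the swaps only.

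Of 23 citric acid cycle genes, into which glutamate dehydrogenase feeds, 11 had estimates above 0 and 12 below (median -0.011), or 9 and 14 with the swaps turned. The isocitrate dehydrogenase subunit Idh3a was at 0.14 ± 0.07, the mitochondrial phosphoenolpyruvate carboxykinase Pck2 at -0.15 ± 0.09 and the succinate dehydrogenase subunit Sdhb at -0.11 ± 0.07 (SE; limma, adjusted p = 0.724, 0.764 and 0.764). Idh3a was at 0.095 without array 9 and Pck2 at -0.084 without array 8, and with the swaps turned Idh3a would be at -0.078 and Sdhb at 0.058. For the orientation effect, 1 of the 86 genes passed, the fumarase Fh1 at 0.31 ± 0.05 (limma, adjusted p = 0.00870), with 2.61% of all genes called.

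**Figure D4:**
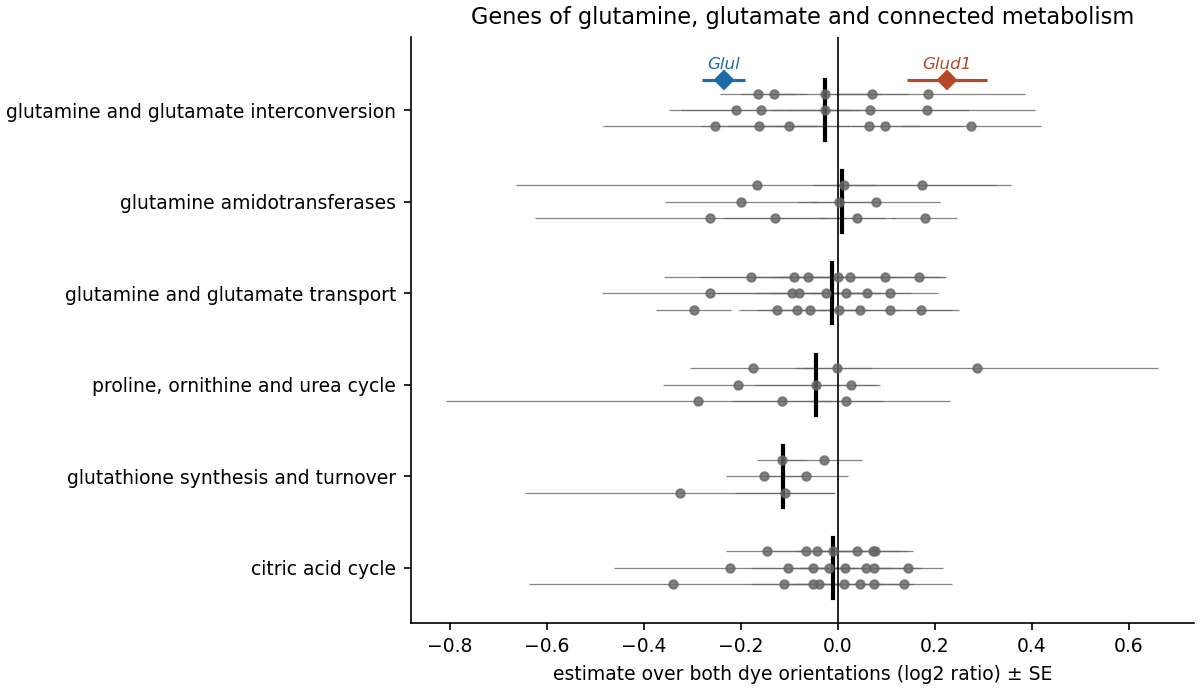
Estimate over both dye orientations ± SE (horizontal axis, log2 ratio) of each fitted gene in 6 metabolic lists (rows), with Glul and Glud1 as diamonds and the median of the other genes of a list as a black bar. The medians lie between -0.11 and 0.0081.

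Markers of myeloid cells and fibroblasts were also listed, as were pluripotency and lymphoid markers, which belong to the labelled cell type. The 12 fitted myeloid markers had a median of -0.11 and a range of -0.30 to 0.013, and 10 of them were below 0. With the swaps turned, 8 of 12 would be above 0. Medians were 0.034 for 14 pluripotency, 0.095 for 12 lymphoid and 0.048 for 13 fibroblast markers, with 9 above 0 in each. No marker passed limma's test of the treatment estimate. At an unadjusted p under 0.05 there were 4 of 12 myeloid markers below 0, against 3.08% of all genes, and 1 of 14 pluripotency and 2 of 12 lymphoid markers above 0, against 3.94%. For the orientation effect S100a9, a myeloid marker, passed at 0.31 ± 0.06 (limma, adjusted p = 0.01265). With the swaps turned, 5 of 14 pluripotency, 7 of 12 lymphoid and 7 of 13 fibroblast markers would be above 0. At an unadjusted p under 0.05 (limma), that reading would give 4 myeloid markers above 0 and 1 below. It would give 1 and 1 for pluripotency and 2 and 2 for lymphoid markers, against 19.5% of all genes in both directions together. The part of these markers in the values of Glul and Glud1 was not tested.

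Without arrays 7, 8 and 15, Glul was at -0.25 ± 0.05 and Glud1 at 0.36 ± 0.05 (SE, n = 12 arrays). Leaving out 1 array at a time, Glul lay between -0.25 and -0.21 and Glud1 between 0.20 and 0.29.

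**Figure D5:**
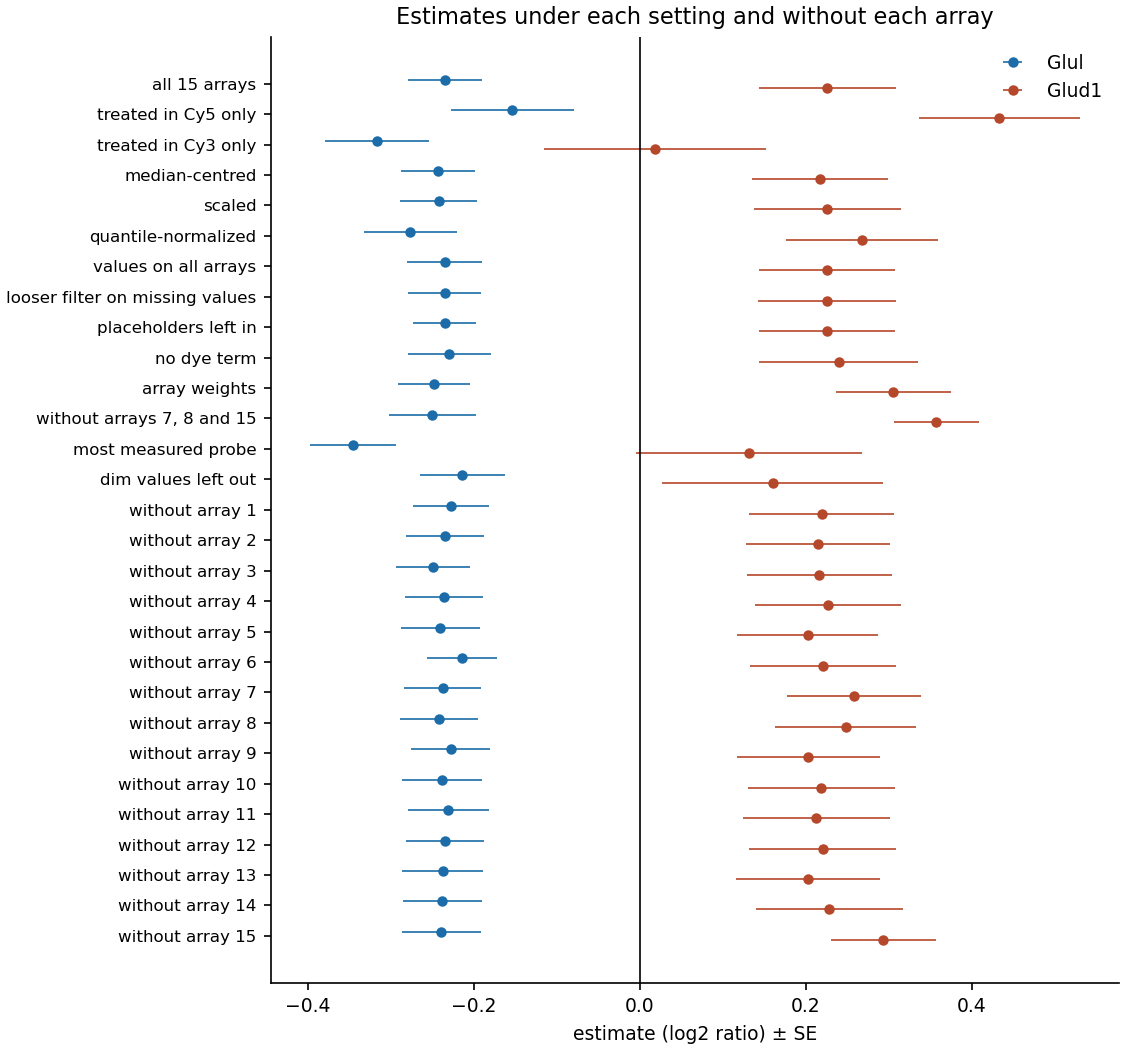
Treatment estimate ± SE (horizontal axis, log2 ratio) of Glul and Glud1 with all 15 arrays, under 13 other settings and without each array in turn (rows); turned swaps are not drawn. Glul stays between -0.35 and -0.15, and Glud1 between 0.018 and 0.43.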

How the data were processed

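The authors deposited 1 log2 ratio of both channels per probe and array. Base 2 was inferred from the values. The sources used here do not give the normalization, the background correction or the direction. Values of absolute size above 10 (1999 placeholders) were set missing. By the platform's annotation, 13891 probes had 1 symbol, 5 had several and 6309 had none. Symbols of 13855 were updated by gene identifier from RefSeq (GRCm38.p6). A gene's value on an array is the mean over its probes.

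A gene entered the fit if it was measured on 4 or more arrays in both orientations. The fit used lmFit and eBayes of limma 3.58.1 (R 4.3.3), with the mean of both orientations and an orientation term, and Benjamini-Hochberg adjustment over all genes at 0.05. The fit was tested on simulated data. Relations across arrays used 100000 permutations, or all of them under 10 arrays (Python 3.11.15, numpy 2.4.6). All tests were two-sided. The number of arrays limits the precision.

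The pair and the lists were chosen with earlier results of these data known. Named from each metabolic list were genes past the threshold and the 3 with the largest absolute moderated t. Alternatives covered orientation, direction, centring, scaling, quantile normalization, filters, placeholders, array weights, the most measured probe and left-out arrays; dim values and the settings of the relations were added after seeing the data.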

Additional observations from a re-analysis of the deposited data

Results flagged for a closer look

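Within each dye orientation, 50 sets of at most 8 arrays were examined for 1 value far from the others, and 5 were found. For a single set chance gives about 1 in 20, and sets that share probe values are not independent. Array 15 held 3 of the 5. Probe 18222 of Glud1 was at -1.845 there, against -0.187 for the nearest swap. The Glud1 mean was -0.798, against -0.015 for the nearest, and Glud1 minus Glul was -0.529, against 0.269 for the nearest; both follow from that 1 probe value. Asl was at -2.122 on array 1, against -0.385 for the nearest array with the treated RNA in Cy5. Gclc was at -1.305 on array 7, against -0.283 for the nearest.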

How the results depend on the processing

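Each ratio sets treated against untreated RNA on the same array, so the estimates are already paired within arrays. No further pairing between arrays was possible because the labels put all arrays in 1 group. Apart from turned swaps, Glul was below 0 and Glud1 above 0 in all 28 alternatives, from -0.35 to -0.15 and from 0.018 to 0.43. This tally is a description, since the pair was chosen by these estimates. The filters on missing values and the placeholders left in could not change them, as no value of either gene was missing or a placeholder. The fits that leave out 1 array share most of their arrays. Each orientation alone gave 0.43 (Cy5) and 0.018 (Cy3) for Glud1. The setting with the most measured probe used probe 2516 for Glul (-0.35) and probe 18222 for Glud1 (0.13). Both probes of either gene were measured on all 15 arrays, so this choice was between ties. The probes not taken, 19121 and 19876, stood at -0.12 and 0.32.

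With the swaps turned, Glul was at 0.082 and its probe 2516 had an orientation effect of -0.35; 1 list gene, 254 genes in all and 4 genes for the orientation effect passed, by construction. The Glud1 orientation effect of 0.20 passed without arrays 7, 8 and 15, where 0 genes passed for treatment and 571 for orientation. Genes passing for treatment, 4 as reported, numbered 0 in either orientation alone, 8 with placeholders left in, 11 with array weights (676 for orientation) and 8 with the most measured probe. Leaving out 1 array gave 0 to 7 genes for treatment, 99 to 431 for orientation against 254, 0 list genes, estimates of -0.25 to -0.21 (Glul) and 0.20 to 0.29 (Glud1), and orientation effects of 0.067 to 0.10 and 0.14 to 0.24. Causes were not tested. Relations between probes missed the threshold over all arrays in every setting run (adjusted p of at least 0.292). Without spot intensities, signal over background is unknown.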
